A study of Mus musculus with 4 samples.

Results

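The genes described here are 29 genes of glycolysis and of the response to low oxygen, 20 of them glycolytic and 9 known as targets of the hypoxia response. They were taken by name from a table of 29871 rows of RNA levels, and each of the 29 had a row under its upper-case symbol. The tissue was small-intestinal adenoma, the benign tumour that forms in mice with the Min allele of Apc, which truncates a tumour suppressor of the Wnt pathway. All 4 libraries came from APC Min/+ mice, so none is normal gut. Control 1 and control 2 carried the Min allele alone, and PAF KO 1 and PAF KO 2 carried a PAF knockout as well (genotype PAF KO; APC Min/+). PAF is taken here, from knowledge of the field, as the PCNA-associated factor. How the knockout was made, the ages of the mice and whether any library pools several animals are not stated in the labels. Nor do the labels say that the libraries came from separate animals, so p-values measure only the spread between these samples.

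Glycolysis splits glucose into pyruvate in a chain of enzyme steps, and lactate dehydrogenase turns pyruvate into lactate when it is not burned in mitochondria. Many tumours run this chain fast even with oxygen present, and Wnt signalling is one of the pathways known to favour it in the intestine. When oxygen is short, the prolyl hydroxylases no longer mark hypoxia-inducible factor (HIF) for destruction, and HIF then binds short hypoxia response elements near most glycolytic genes, VEGFA, CAR9 and the hydroxylase gene EGLN3 itself. Raised levels of these genes are therefore often read as a sign of low oxygen in a tissue.

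Promoter windows of 6 members are shown because these genes stand for the main patterns found below: LDHA and P4HA1 lay above control in both knockout libraries by almost the same amount, LDHB and EGLN3 lay below control in both, CAR9 went opposite ways in the 2 libraries, and VEGFA was near control in PAF KO 1 and far below it in PAF KO 2. Each window runs from 250 bases before to 50 bases after a RefSeq start site (build GRCm38.p6), 5′ to 3′ on the gene's own strand. Where a gene had several windows, the most upstream is shown. Capitals mark the core of the hypoxia response element, searched as ACGTG or GCGTG on both strands. A stretch such as CACGTG matches on both strands and was counted on each, and CACGTG is also the E-box bound by MYC and related factors. The windows are LDHA at chr7:46845554-46845853 (plus strand), LDHB at chr6:142507908-142508207 (minus), EGLN3 at chr12:54203825-54204124 (minus), P4HA1 at chr10:59323046-59323345 (plus), CAR9 at chr4:43506776-43507075 (plus) and VEGFA at chr17:46032328-46032627 (minus).
LDHA: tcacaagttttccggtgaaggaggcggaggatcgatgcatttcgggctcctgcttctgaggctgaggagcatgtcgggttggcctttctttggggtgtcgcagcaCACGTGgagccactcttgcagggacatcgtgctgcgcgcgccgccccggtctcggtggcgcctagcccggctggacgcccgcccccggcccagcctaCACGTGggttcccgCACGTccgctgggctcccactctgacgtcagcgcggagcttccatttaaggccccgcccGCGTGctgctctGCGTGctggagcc
P4HA1: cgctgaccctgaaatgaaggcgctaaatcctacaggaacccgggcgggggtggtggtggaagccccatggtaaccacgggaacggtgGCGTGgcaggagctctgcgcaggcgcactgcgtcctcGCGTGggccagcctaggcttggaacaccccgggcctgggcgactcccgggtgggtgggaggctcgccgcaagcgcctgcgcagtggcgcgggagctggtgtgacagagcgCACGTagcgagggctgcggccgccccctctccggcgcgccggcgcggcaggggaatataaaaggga
LDHB: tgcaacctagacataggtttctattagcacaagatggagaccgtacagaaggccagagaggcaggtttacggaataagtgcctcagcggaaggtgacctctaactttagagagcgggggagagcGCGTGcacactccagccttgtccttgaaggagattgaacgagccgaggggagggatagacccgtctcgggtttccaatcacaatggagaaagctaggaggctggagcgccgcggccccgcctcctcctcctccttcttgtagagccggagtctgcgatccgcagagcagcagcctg
EGLN3: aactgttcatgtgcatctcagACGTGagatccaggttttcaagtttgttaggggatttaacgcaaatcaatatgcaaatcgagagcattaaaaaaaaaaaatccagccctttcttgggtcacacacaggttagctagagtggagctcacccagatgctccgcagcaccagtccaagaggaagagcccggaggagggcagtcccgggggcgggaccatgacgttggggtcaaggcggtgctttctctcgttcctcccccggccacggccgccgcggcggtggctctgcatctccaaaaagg
CAR9: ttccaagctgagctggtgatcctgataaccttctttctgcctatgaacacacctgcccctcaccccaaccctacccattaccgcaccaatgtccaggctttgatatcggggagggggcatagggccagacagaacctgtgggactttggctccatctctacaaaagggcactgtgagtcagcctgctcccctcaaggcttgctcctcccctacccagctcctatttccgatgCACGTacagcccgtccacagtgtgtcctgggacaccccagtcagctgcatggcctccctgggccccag
VEGFA: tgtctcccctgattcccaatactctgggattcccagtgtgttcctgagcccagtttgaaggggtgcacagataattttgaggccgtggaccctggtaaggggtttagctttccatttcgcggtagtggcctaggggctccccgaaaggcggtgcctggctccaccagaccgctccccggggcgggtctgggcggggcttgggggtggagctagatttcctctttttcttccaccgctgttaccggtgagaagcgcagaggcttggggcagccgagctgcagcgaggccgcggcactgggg
The LDHA window held 7 matches, the P4HA1 window 3, and the LDHB, EGLN3 and CAR9 windows 1 each, while the VEGFA window shown held 0. The CAR9 match lay on the reverse strand, 18 to 14 bases before the start site. A second VEGFA window, further downstream, held 2 matches. The other members did not all follow the order of these windows. BNIP3 and HK1 were lower in both knockout libraries, and the BNIP3 window and the downstream HK1 window held 5 matches each. PFKL, also lower, held 1. Of the members higher in both, PGAM1 held 3 and TPI1 0. Whether the number of matches goes with direction was not tested. RefSeq windows were found for 28 members, 41 windows in all. Of these, 33 (80.5%) held at least 1 match, and 25 of the 28 genes had such a window. Among all 32851 windows in the RefSeq table the share was 43.8%. Windows with 2 or more matches made up 51.2% of the members' windows and 20.6% of all. A match is a string of letters in a window and not a bound site, and both patterns hold a CG step, so the share depends on base composition.

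The libraries themselves differed in ways that bear on every value below. The row of the PAF gene, listed under an older clone symbol, read 17.9 and 17.8 FPKM (fragments per kilobase of transcript, scaled to the library's mapped total) in the control libraries, 4.13 in PAF KO 1 and 11.4 in PAF KO 2. It was thus lower in both knockout libraries but far from absent in PAF KO 2, and the 2 knockout libraries are named throughout by their labels. Depth, estimated from the spacing of low FPKM values, was between 13300000 and 24100000 fragments. The squared difference between the control libraries was 2.49 times that of counting error, and that between the knockout libraries 76.3 times (median chi-square over expressed genes). XIST stood at 46.4 FPKM in PAF KO 2 and at or below 0.00861 in the other libraries, so the knockout libraries came from different animals of different sex. In PAF KO 2 the difference from control also followed the GC content of the transcript, with a median of 0.71 (log2) over the rows of at most 42% GC and -0.61 over those above 58%. In PAF KO 1 the medians of the same bins were -0.11 and -0.25.

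Cell-type markers differed as well. The 11 epithelial markers, which check the tissue, were all expressed, with summed levels from 7778 to 8794 FPKM over the 4 libraries. The 10 enterocyte markers summed to 8007 and 8587 FPKM in the control libraries, 12271 in PAF KO 1 and 1058 in PAF KO 2. The high sum in PAF KO 1 came mainly from FABP1 and APOA4, while the median marker there lay at -0.21 (log2) against control. In both knockout libraries, 5 of the 10 were lower (all rows 30.2%) and 0 higher (all rows 21.5%). The 7 smooth muscle markers summed to 228 and 227 FPKM in control, 270.4 in PAF KO 1 and 812 in PAF KO 2, and the 7 fibroblast markers to 272, 275, 345 and 698 in the same order. PAF KO 2 thus stood apart, with the lowest enterocyte and the highest stromal sums, and none of these markers was listed at 0 in any library. Their part in the results below was not tested. In bulk tissue, fewer cells of a type and less RNA per cell cannot be told apart.

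No member passed the test that used all 4 libraries. Limma on log2(FPKM + 1), over the 13716 rows averaging 1 FPKM or more and with Benjamini-Hochberg adjustment over all of them, called 10 rows (0.0729%) at an adjusted p under 0.05, all lower in the knockout, and 0 of the 27 members tested. Without adjustment, 1810 rows and 2 members, LDHB and EGLN3, had a p under 0.05. HK3 and ENO2 were too low to be tested. The groups did not overlap for 16 of the 27 members. Both knockout libraries lay above both controls for LDHA, P4HA1, PGAM1, PGK1, PFKM and TPI1, which are 6 members or 22.2%, against 21.5% of all tested rows. They lay below both controls for LDHB, EGLN3, PDK1, ALDOC, PFKFB3, GAPDH, PFKL, BNIP3, VEGFA and HK1, which are 10 members or 37.0%, against 30.2% of all rows. Both shares are near those of the whole table. Of the 6 higher members, LDHA, PGAM1, PGK1 and TPI1 have near-identical copies in the genome, described below. Among the 18 tested members without such a copy, 2 (11.1%) lay above and 7 (38.9%) below. The median log2 difference was -0.22 over the 18 tested glycolytic members and -0.46 over the 9 hypoxia members, against 0.0035 over all tested rows.

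**Figure D1:**
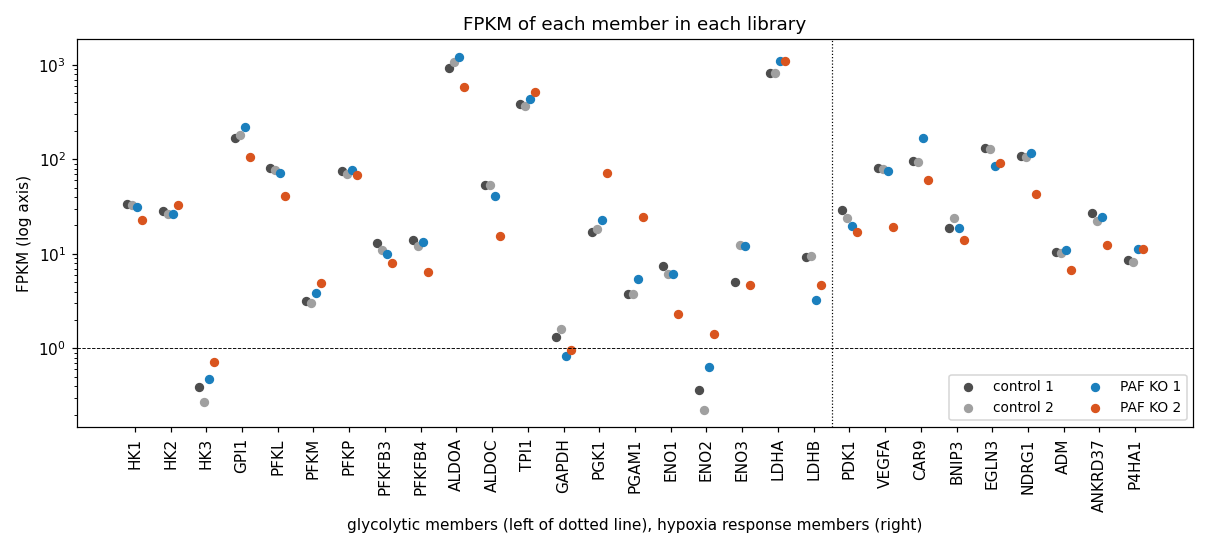
Levels of the 29 members in each library (FPKM, log axis), in pathway order with the hypoxia members on the right; each point is 1 library and the dashed line marks 1 FPKM. ALDOA, LDHA and TPI1 lie highest, GAPDH lies between 0.832 and 1.60 FPKM, and the points of PAF KO 2 stand away from the other libraries for VEGFA, PGK1 and PGAM1.

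The first steps of the chain trap glucose and commit it to glycolysis. Hexokinase phosphorylates glucose as it enters the cell. HK1, the form found in most tissues, stood at 34.0 and 33.3 FPKM in the control libraries, 31.5 in PAF KO 1 and 22.6 in PAF KO 2. HK2, the form that tumours and HIF favour, stood at 28.5, 26.8, 26.2 and 33.1 FPKM in the same order. HK1 was thus lowest in PAF KO 2 and HK2 highest there, with overlapping groups for HK2. HK3, a form best known from white blood cells, was near the detection limit at 0.387, 0.274, 0.471 and 0.720 FPKM. Its 2 knockout values were the higher ones. Of the 6 neutrophil markers tested, 4 were higher (all rows 21.5%) and 1 lower (all rows 30.2%) in both knockout libraries. Their median log2 difference was 1.87 in PAF KO 1 and 1.44 in PAF KO 2. All 8 with a row summed to 285 and 349 FPKM in control, 456 in PAF KO 1 and 258 in PAF KO 2. Most of each sum was LCN2, at 252, 304, 279 and 137 FPKM. The part of these markers was not tested. GPI1, which turns glucose 6-phosphate into fructose 6-phosphate, was at 169 and 180.1 FPKM in control, 219 in PAF KO 1 and 106 in PAF KO 2, so the controls lay between the knockout libraries.

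Phosphofructokinase sets the pace of the pathway. PFKL, the liver-type form, was at 80.7 and 78.0 FPKM in control, 72.0 in PAF KO 1 and 41.2 in PAF KO 2. PFKP, the platelet-type form, was at 75.5, 70.5, 78.1 and 67.6 FPKM. PFKL was therefore lower in both knockout libraries, by far more in PAF KO 2, while PFKP overlapped between the groups. The muscle-type form PFKM was low, at 3.19 and 3.06 FPKM in control, 3.84 in PAF KO 1 and 4.96 in PAF KO 2; its log2 difference was 0.38 (SE 0.203, limma adjusted p = 0.477). PFKFB3 makes fructose 2,6-bisphosphate, the strongest activator of phosphofructokinase. It stood at 12.97 and 11.03 FPKM in control, 10.02 in PAF KO 1 and 8.01 in PAF KO 2, a log2 difference of -0.38 (SE 0.198, limma adjusted p = 0.470). PFKFB4, a relative that is also under HIF control, was at 13.9, 12.1 and 13.3 FPKM in the first 3 libraries and at 6.40 in PAF KO 2. PFKFB3 lay lower in both knockout libraries, PFKFB4 in PAF KO 2 alone.

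Aldolase then splits the phosphorylated sugar. ALDOA, its main form in most cells, was among the most abundant members at 928 and 1082 FPKM in control, 1225 in PAF KO 1 and 590.1 in PAF KO 2. The knockout libraries thus lay on either side of the controls. ALDOC, best known from the brain and also a HIF target, was at 53.1 and 53.5 FPKM in control, 40.6 in PAF KO 1 and 15.6 in PAF KO 2. It was below control in both, at 76.2% and 29.3% of the control mean, with a log2 difference of -1.05 (SE 0.502, limma adjusted p = 0.452). TPI1, which interconverts the products of the split, was at 385 and 369 FPKM in control, 430.3 in PAF KO 1 and 520.4 in PAF KO 2, higher in both knockout libraries.

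The next steps, which yield the ATP of glycolysis, are catalysed by enzymes whose genes have near-identical processed copies in the mouse genome, so that fragments could be assigned to more than 1 place and their rows are uncertain. Stretches of at least 300 bases at 95% identity or more in other genes covered 88.0% of the GAPDH transcript (76 other genes, 74 of them pseudogenes), 85.6% of ENO1, 76.8% of LDHB, 68.8% of PGK1, 55.0% of LDHA, 50.2% of GPI1, 43.1% of PGAM1, 32.1% of BNIP3 and 19.3% of TPI1. The other 20 members had none. GAPDH, which oxidises glyceraldehyde 3-phosphate and is normally one of the most abundant transcripts of any cell, was listed at only 1.33 and 1.60 FPKM in control, 0.832 in PAF KO 1 and 0.963 in PAF KO 2. PPIA, another housekeeping gene with many processed copies, was listed at or below 0.446 FPKM in every library, while ACTB stood between 1454 and 2335. The GAPDH row is therefore not read as the level of the gene.

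PGK1, the X-linked gene of phosphoglycerate kinase, was listed at 17.0 and 18.4 FPKM in control, 22.7 in PAF KO 1 and 71.0 in PAF KO 2. PGAM1, the phosphoglycerate mutase of most tissues, was listed at 3.81 and 3.76 FPKM in control, 5.43 in PAF KO 1 and 24.7 in PAF KO 2. Both were higher in both knockout libraries and several-fold higher in PAF KO 2, at 401 and 653% of the control mean. With the knockout libraries so far apart, the 4-library fit gave log2 differences of 1.14 (SE 0.601, limma adjusted p = 0.470) for PGK1 and 1.43 (SE 0.740, limma adjusted p = 0.467) for PGAM1. ENO1, the main enolase, was listed at 7.39, 6.08, 6.17 and 2.31 FPKM. ENO2, the neuronal form, was at 0.366 and 0.225 FPKM in control, 0.636 in PAF KO 1 and 1.42 in PAF KO 2, and ENO3, the muscle form, at 5.03, 12.6, 12.1 and 4.66 FPKM. ENO1 was lowest and ENO2 highest in PAF KO 2, and ENO3 differed as much between the controls as between the knockout libraries. Striated muscle markers summed to between 1.15 and 3.56 FPKM, with MYH2 at 0 in all 4 libraries, and neuron and glia markers to 17.3, 15.8, 14.4 and 24.7 FPKM.

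The lactate dehydrogenase pair held the member of smallest p, LDHB. LDHA, the form that favours making lactate and a standard HIF and MYC target, was at 810.5 and 823 FPKM in control, 1105 in PAF KO 1 and 1091 in PAF KO 2. LDHB, the form that favours turning lactate back into pyruvate, was at 9.25 and 9.55 FPKM in control, 3.28 in PAF KO 1 and 4.67 in PAF KO 2. Neither gene's groups overlapped. LDHA lay above control by 0.43 on the log2 scale (SE 0.213, limma adjusted p = 0.457), at 135 and 134% of the control mean. LDHB lay below it, with a log2 difference of -1.08 (SE 0.215, limma adjusted p = 0.273), at 34.9% of the control mean in PAF KO 1 and 49.7% in PAF KO 2. The ratio of LDHA to LDHB was 87.6 and 86.2 in the control libraries, 337 in PAF KO 1 and 234 in PAF KO 2. Both rows carry the uncertainty of near-identical copies named above.

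Of the hypoxia members, EGLN3, PDK1, BNIP3 and ANKRD37 are given first. EGLN3, a prolyl hydroxylase that HIF induces and that in turn limits HIF, was at 133 and 128 FPKM in control, 84.5 in PAF KO 1 and 92.1 in PAF KO 2. It was lower in both knockout libraries by nearly the same amount, with a log2 difference of -0.56 (SE 0.167, limma adjusted p = 0.333). PDK1, the kinase that keeps pyruvate out of the mitochondrion, was at 28.8 and 23.8 FPKM in control, 19.6 in PAF KO 1 and 17.1 in PAF KO 2, a log2 difference of -0.49 (SE 0.187, limma adjusted p = 0.391). BNIP3, which marks mitochondria for removal, was at 18.8, 23.9, 18.6 and 14.1 FPKM, with control 1 and PAF KO 1 almost equal. ANKRD37, an ankyrin-repeat gene known as a HIF target, was at 27.1, 22.2, 24.4 and 12.5 FPKM. ANKRD37 was thus low in PAF KO 2 alone.

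P4HA1, a prolyl hydroxylase of collagen, was the only hypoxia member above control in both knockout libraries. It was at 8.73 and 8.24 FPKM in control and at 11.3 in each knockout library, a log2 difference of 0.38 (SE 0.152, limma adjusted p = 0.406). The fibroblast markers, of which 7 of 7 were higher in both knockout libraries (all rows 21.5%), had median log2 differences of 0.31 in PAF KO 1 and 1.39 in PAF KO 2. P4HA1 stood at 0.38 and 0.37. The part of the fibroblast markers was not tested. VEGFA, the main growth factor for blood vessels, was at 81.8 and 78.4 FPKM in control, 75.2 in PAF KO 1 and 19.1 in PAF KO 2. That is 93.9% of the control mean in PAF KO 1 and 23.8% in PAF KO 2. The 9 endothelial markers summed to 73.1 and 74.3 FPKM in control, 91.1 in PAF KO 1 and 102 in PAF KO 2. Of them, 7 were higher in both knockout libraries (all rows 21.5%) and 1, CDH5, was lower in both (all rows 30.2%). CDH5 was at 26.3 and 27.6 FPKM in control, 25.9 in PAF KO 1 and 12.4 in PAF KO 2. The part of the endothelial markers was not tested. CAR9, the cell-surface carbonic anhydrase often used as a hypoxia marker, was at 95.5 and 94.8 FPKM in control, 168 in PAF KO 1 and 60.2 in PAF KO 2, so that the knockout libraries lay on opposite sides of a tight control pair. ADM, the vessel-dilating peptide adrenomedullin, was at 10.6, 10.4, 11.05 and 6.73 FPKM, and NDRG1, a stress gene of differentiated epithelium, at 107, 106, 118 and 43.1 FPKM. Both were near control in PAF KO 1 and low in PAF KO 2.

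Set against control one at a time, the 2 knockout libraries gave different pictures. In these fits the lone knockout library is assumed to vary like the controls, whose spread may be technical. PAF KO 1 stayed within 0.5 log2 units of the control mean for 23 of the 27 tested members (85.2%, all rows 76.0%), and PAF KO 2 for 6 (22.2%, all rows 47.3%). In PAF KO 1, limma called 4 members (14.8%), with ALDOC, EGLN3 and LDHB lower and CAR9 higher, against 20.7% of all rows. In PAF KO 2 it called 22 members (81.5%), 6 higher and 16 lower, against 61.2% of all rows, and it did not call BNIP3, ENO3, GAPDH, HK2 or PFKP. ALDOC, LDHB and EGLN3 were lower in both. Of the tested members, 10 (37.0%) lay below both controls in both knockout libraries, against 30.2% of all rows. The log2 differences in PAF KO 1 and PAF KO 2 were -0.38 and -1.71 for ALDOC, -1.28 and -0.87 for LDHB, and -0.62 and -0.50 for EGLN3. CAR9 differed from control with opposite signs, at 0.82 and -0.65. The 2 fits share the control libraries, so a difference in both is not independent support.

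PAF KO 2 lay below the control mean for 20 of the 27 members (74.1%), where 45.3% of all rows did so. PAF KO 1 lay below it for 13 (48.1%), where 63.0% of all rows did so. The median log2 difference of the members was 0.04 in PAF KO 1 and -0.57 in PAF KO 2, against -0.11 and 0.09 over all tested rows. Among the hypoxia members it was -0.01 and -0.59, and among the glycolytic members 0.07 and -0.54. The low side of the list in the 4-library medians thus came from PAF KO 2. Neither difference from the whole table was tested.

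**Figure D2:**
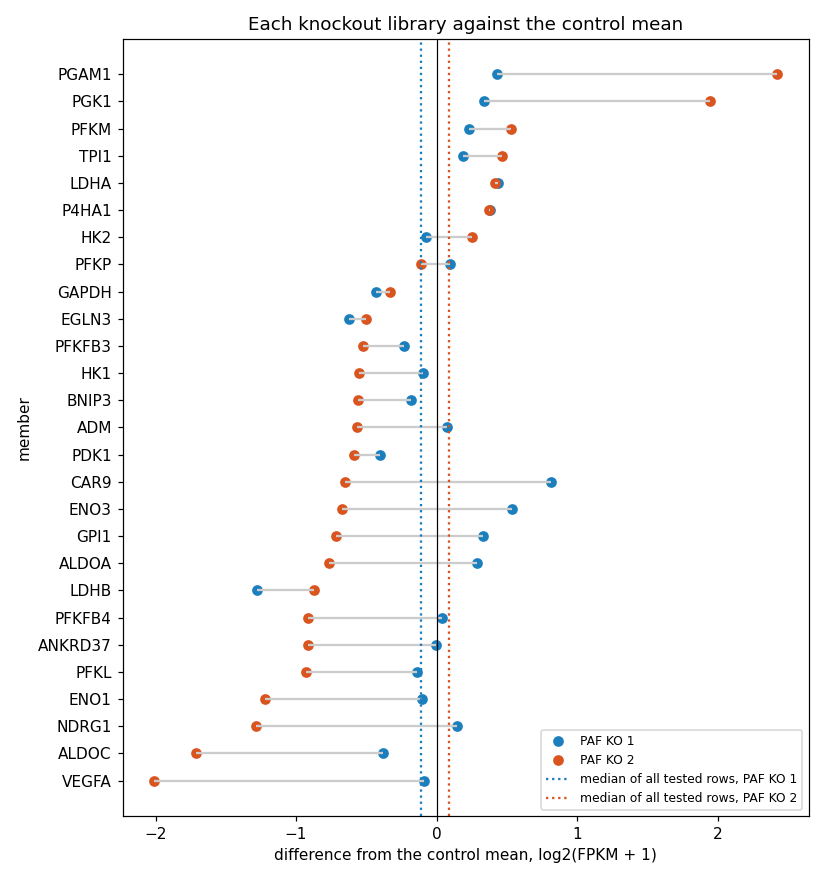
Difference of each knockout library from the control mean for each tested member, in log2(FPKM + 1); each point is 1 library and 0 is the control mean. PAF KO 1 lies within 0.5 of 0 for 23 of 27 members (85.2%, all tested rows 76.0%), while PAF KO 2 reaches from -2.01 for VEGFA to 2.43 for PGAM1.

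The tested members were of middling to high GC content, with a median of 52.3%, and 22 of them lay between 50 and 58% GC. When a smooth trend on GC content and length was removed within each library, the median over the members in PAF KO 2 was -0.47 in place of -0.57. PAF KO 2 then lay within 0.5 of the control mean for 12 of the 27 members, in place of 6, and for 8407 of all 13716 rows. VEGFA (-1.89), ALDOC (-1.59) and NDRG1 (-1.10) remained low in PAF KO 2, and PGAM1 (2.29) and PGK1 (1.56) high. BNIP3, a transcript of low GC content, went from -0.56 to -1.52. HK1 went from -0.55 to -0.02 and PFKL from -0.93 to -0.35 in that library. LDHB (-1.29 in PAF KO 1 and -1.08 in PAF KO 2) and EGLN3 (-0.51 and -0.45) stayed lower in both. LDHA and P4HA1, which had nearly equal values in both knockout libraries, were then at 0.46 and 0.18, and at 0.49 and 0.07. Limma called 0 rows after this step, with 2144 rows and 3 members, EGLN3, LDHB and PFKM, at an unadjusted p under 0.05.

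**Figure D3:**
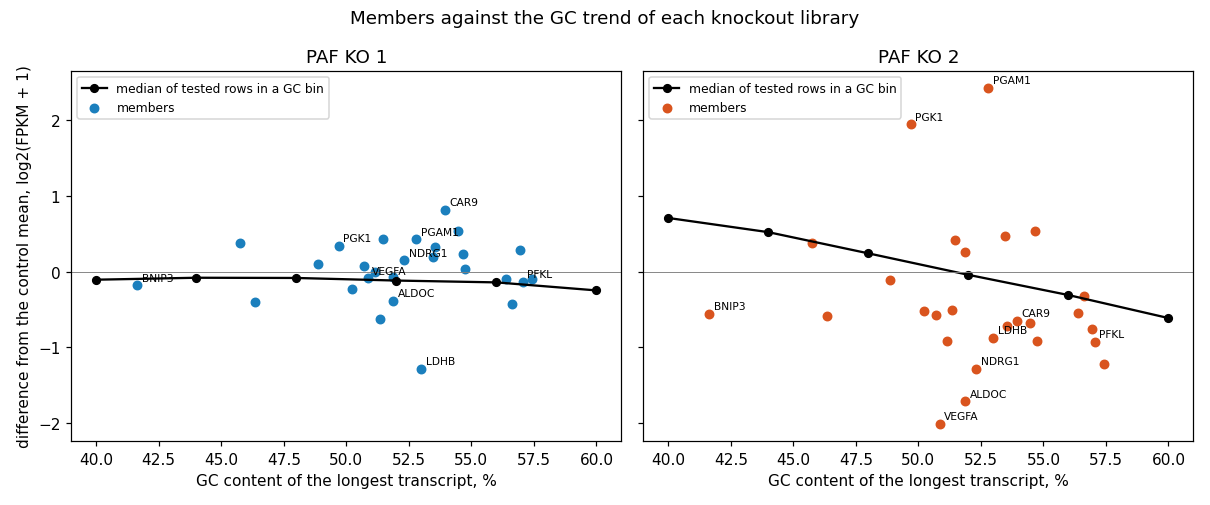
Difference from the control mean in log2(FPKM + 1) against GC content of the longest transcript (%), in 1 panel per knockout library; points are members and the line joins the medians of all tested rows in bins of GC, the open-ended outer bins being drawn next to their limits. The line falls from 0.71 to -0.61 in PAF KO 2 and from -0.11 to -0.25 in PAF KO 1.

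Because FPKM is scaled per length, forms of 1 enzyme can be set side by side as shares of their summed FPKM, which also removes any scaling common to a library. Shares do not remove the GC trend of PAF KO 2. Of 14 shares in 4 enzyme families, 10 did not overlap between the groups. Among the levels of all tested rows, 21.5% lay above both controls in both knockout libraries and 30.2% below. These are single levels and not shares, for which no such rate over the table was computed. The shares of 1 family depend on each other, so the 10 are not separate results. With 2 libraries against 2, the exact 2-sided permutation test cannot give a p under 0.333, and the 10 shares reached that value (0.467 after Benjamini-Hochberg adjustment over the 14). LDHB made up 1.13 and 1.15% of lactate dehydrogenase in control, 0.296% in PAF KO 1 and 0.426% in PAF KO 2. Near-identical copies leave the LDHA and LDHB rows uncertain, as stated above. HK1 made up 39.0 and 40.4% of hexokinase in control, 32.5% in PAF KO 1 and 26.1% in PAF KO 2. HKDC1, a further hexokinase gene expressed in the gut, held 27.1 and 26.2% in control, 39.6% in PAF KO 1 and 34.8% in PAF KO 2. HKDC1 is not among the 29 genes, and its own level was 23.6, 21.6, 38.3 and 30.2 FPKM. With the GC and length trend removed, the level of HK1 stood at 0.17 (log2) in PAF KO 1 and at -0.02 in PAF KO 2. That of HKDC1 then stood at 0.96 and 0.87.

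Phosphofructokinase differed in make-up as well. PFKL held 50.6 and 51.5% in control, 46.8% in PAF KO 1 and 36.2% in PAF KO 2, while PFKP held 47.4, 46.5, 50.7 and 59.4%. PFKM held 2.0 and 2.02% in control, 2.49% in PAF KO 1 and 4.36% in PAF KO 2. The share of PFKL was thus lower, and those of PFKP and PFKM higher, in both knockout libraries, with the wider gap in PAF KO 2. PFKL and PFKP differ in GC content, at 57.1 and 48.9%. Their levels in PAF KO 2 were at -0.93 and -0.11 (log2) against control. With the GC and length trend removed they were at -0.35 and -0.16, a smaller gap. In enolase the control libraries differed so much (ENO1 at 57.8 and 32.2%) that the ENO1 share overlapped between the groups (32.6 and 27.5% in the knockout libraries). Near-identical copies covered 85.6% of the ENO1 transcript, so its row is uncertain. The ENO1 share is therefore not read as the make-up of enolase.

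**Figure D4:**
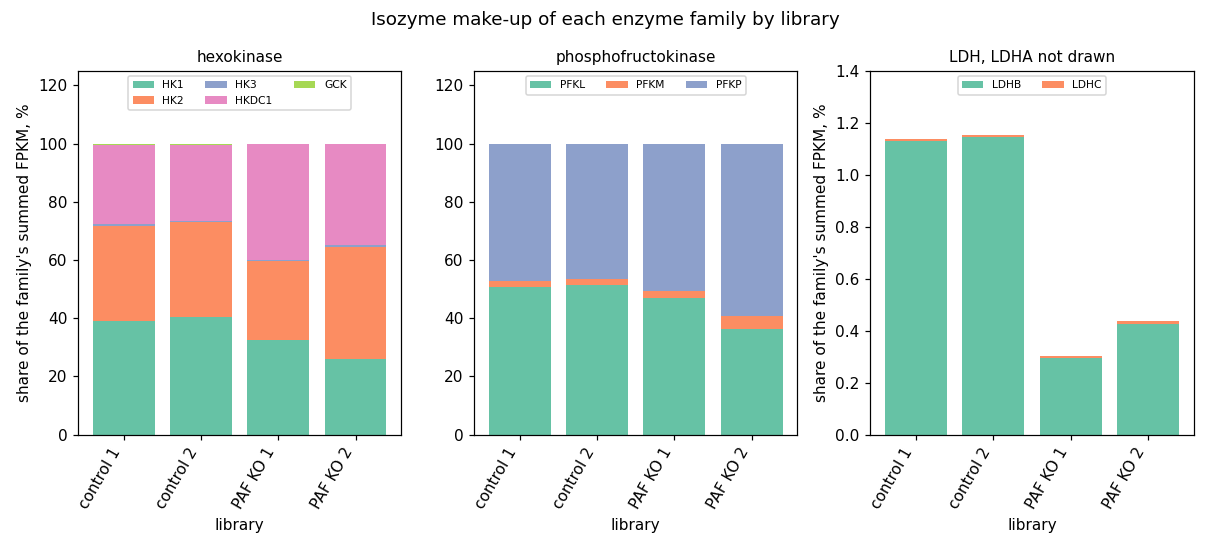
Share of each form in the summed FPKM of its enzyme family (%), 1 bar per library; in the lactate dehydrogenase panel LDHA, which makes up the rest, is not drawn. The LDHB share is 1.13 and 1.15% in the control libraries and 0.296 and 0.426% in the knockout libraries.

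Around the members, 6 further lists of the same pathways held 114 genes, of which 103 were tested and 0 were called in the 4-library fit. Both knockout libraries lay above both controls for 22 of them (21.4%) and below for 33 (32.0%), against 21.5 and 30.2% of all tested rows. Among the 12 tested genes of sugar and lactate transport, 2 lay above (16.7%, all rows 21.5%) and 3 below (25.0%, all rows 30.2%). SLC16A1, the transporter that carries lactate across the membrane, was at 21.0 and 19.6 FPKM in control, 39.1 in PAF KO 1 and 43.3 in PAF KO 2 (log2 difference 0.99, SE 0.160, limma adjusted p = 0.242). SLC2A1, the glucose transporter that HIF induces, was at 141 and 139 FPKM in control, 134 in PAF KO 1 and 84.7 in PAF KO 2. SLC5A1, the sodium-coupled glucose transporter of the brush border, was at 92.8, 89.4, 68.2 and 46.2 FPKM. SLC2A8, a further glucose transporter, was at 4.73, 7.44, 3.15 and 2.98 FPKM. SLC16A1 was thus above control in both libraries, and SLC2A1, SLC5A1 and SLC2A8 below, SLC2A1 mainly in PAF KO 2. With the GC and length trend removed, SLC2A1 stood at 0.13 in PAF KO 1 and at -0.36 in PAF KO 2. SLC16A1, SLC5A1 and SLC2A8 kept their direction in both. Other transporters, named after their values were seen, differed from these. SLC2A3, too low to be tested, was at 0.495 and 0.497 FPKM in control and 0.775 and 0.892 in the knockout libraries. SLC2A2 (2.66, 3.12, 10.8 and 0.518 FPKM) and SLC2A5 (10.4, 9.66, 12.5 and 3.63 FPKM) were high in PAF KO 1 and low in PAF KO 2. SLC16A3, the more abundant lactate carrier, was at 161 and 162 FPKM in control, 167 in PAF KO 1 and 33.1 in PAF KO 2.

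Among the 13 other glycolytic enzymes tested, 5 lay above both controls in both knockout libraries (38.5%, all rows 21.5%) and 1 below (7.69%, all rows 30.2%). Pyruvate kinase is the last step before LDHA and LDHB. Its gene PKM is listed as PKM2, a row for the gene and not for 1 splice form. That row was at 683 and 652 FPKM in control, 584 in PAF KO 1 and 428 in PAF KO 2. PKLR, a further pyruvate kinase gene named after its values were seen, was at 69.5, 66.2, 88.9 and 59.8 FPKM in the same order. LDHD, which handles D-lactate, was at 4.44 and 4.10 FPKM in control, 9.32 in PAF KO 1 and 6.90 in PAF KO 2. BPGM, which makes 2,3-bisphosphoglycerate, was at 34.2 FPKM in each control library, 42.2 in PAF KO 1 and 57.3 in PAF KO 2. PKM2 thus lay below control in both knockout libraries, and LDHD and BPGM above. With the GC and length trend removed, PKM2 stood at -0.01 in PAF KO 1 and at -0.20 in PAF KO 2, while LDHD and BPGM stayed above in both. Of 17 tested genes of pyruvate dehydrogenase and gluconeogenesis, 4 lay above (23.5%, all rows 21.5%) and 6 below (35.3%, all rows 30.2%). PCK1, the first committed enzyme of gluconeogenesis, was at 33.3 and 31.5 FPKM in control, 14.4 in PAF KO 1 and 4.30 in PAF KO 2. PDP2, a phosphatase that switches pyruvate dehydrogenase on, was at 7.77, 7.55, 4.22 and 5.19 FPKM, and FBP2, a fructose bisphosphatase, at 64.2, 68.2, 86.9 and 103 FPKM. PCK1 and PDP2 lay below control in both and FBP2 above. Of the 8 genes of the pentose phosphate pathway, a branch that makes NADPH and ribose, 2 lay above, RPIA at 18.9, 20.1, 24.9 and 29.1 FPKM and RPE at 33.5, 33.2, 40.6 and 46.9 FPKM, and 3 below, among them H6PD at 28.1, 27.0, 19.0 and 17.3 FPKM. These are 25.0 and 37.5% of the 8, against 21.5 and 30.2% of all rows. With the GC and length trend removed, RPE stood at 0.36 in PAF KO 1 and at -0.25 in PAF KO 2, and H6PD at -0.23 and -0.06.

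Of the 16 oxygen-sensing genes tested, 1 lay above both controls in both knockout libraries (6.25%, all rows 21.5%), 7 lay below (43.8%, all rows 30.2%) and 8 overlapped. HIF1A, the oxygen-controlled subunit of HIF, was at 80.7 and 76.6 FPKM in control, 82.6 in PAF KO 1 and 146 in PAF KO 2. Its log2 difference in PAF KO 2 was 0.88, and 0.32 once the GC and length trend was removed, with PAF KO 1 then at 0.21. EPAS1, which encodes its relative HIF-2α, was at 16.6, 16.1, 15.7 and 15.5 FPKM. HIF is controlled mainly as a protein, which these data do not measure. EGLN1, the main hydroxylase acting on HIF, was at 32.7 and 31.2 FPKM in control, 23.2 in PAF KO 1 and 21.5 in PAF KO 2, below control in both as EGLN3 was, though in PAF KO 2 its difference was -0.03 once the GC and length trend was removed. EGLN2, a further hydroxylase, was at 42.8, 45.9, 31.6 and 34.2 FPKM, and ARNT2, a partner subunit of HIF, at 13.1 and 12.3 FPKM in control and 5.50 and 4.68 in the knockout libraries (log2 difference -1.17, SE 0.170, limma adjusted p = 0.238). Both lay lower in both knockout libraries, but with the GC and length trend removed EGLN2 stood at -0.26 in PAF KO 1 and at 0.19 in PAF KO 2. VHL, the ubiquitin ligase subunit that binds the hydroxylated factor, was at 8.83, 9.65, 8.01 and 14.9 FPKM.

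Of the 38 other hypoxia targets tested, 8 lay above both controls in both knockout libraries (21.1%, all rows 21.5%) and 13 below (34.2%, all rows 30.2%). CAR12, a carbonic anhydrase like CAR9, was at 7.61 and 8.36 FPKM in control, 22.4 in PAF KO 1 and 18.1 in PAF KO 2, a log2 difference of 1.24 (SE 0.188, limma adjusted p = 0.238). PGF, a growth factor of the VEGFA family, was at 5.60 and 4.90 FPKM in control and at 2.09 and 2.23 in the knockout libraries. NOS2, the inducible nitric oxide synthase, was at 10.7 and 10.4 FPKM in control, 0.784 in PAF KO 1 and 2.33 in PAF KO 2. CAR12 lay above control and PGF and NOS2 below it in both knockout libraries, and none of the 3 passed the adjusted test.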

How the data were processed

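Per the labels' protocols, RNA of 4 adenoma samples was extracted on columns and made into libraries by BGI and Illumina methods. FPKM values were deposited by the authors, 1 column per library. TopHat2, Cuffdiff and build mm9 were used, per the submitters' processing notes, in versions and with an annotation not given in the sources used here. Since FPKM is scaled for depth and length, no count test was run.

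Of 29955 rows, 84 repeated a symbol and the row of higher mean was kept. Rows averaging 1 FPKM or more were tested with limma 3.58.1 (R 4.3.3) on log2(FPKM + 1), with a trend on mean expression and Benjamini-Hochberg adjustment over the 13716 rows. This scale understates changes of low genes. Depth was estimated from the smallest steps of FPKM times length, and how exact it is was not tested. GC content and length came from the longest GENCODE transcript and covered 94.2% of tested rows. Near-identical copies were found with BLAST 2.17.0. Promoter windows came from RefSeq on GRCm38.p6, which is not the build of the deposited table, so they were matched by symbol alone. The limma fit was tested on simulated libraries with known changes.

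The members and lists were chosen with earlier results of these data known. Every member is given with its values, and the fit's numbers for the 10 members of smallest p. From the other lists, the text names the 3 genes of smallest p per list. Beside them it names HIF1A, EPAS1, VHL, EGLN1, SLC2A1, the PKM2 row of pyruvate kinase and the PAF gene. Further genes named after their values were seen are marked so in the text. Alternatives were another pseudocount, other filters, median centring, blocks on replicate number, a GC and length correction and leaving out each library. The GC and length correction and the crossed block were chosen after the data had been seen. The shares of 1 enzyme family and 1 gene of the other lists are not reported here.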

Additional observations from a re-analysis of the deposited data

How the results depend on the processing

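The 4-library test called 10 rows and 0 members. It called 4 rows with no filter on low values and 0 once the GC and length trend was removed. Leaving out 1 library gave 0 to 8397 rows and 0 to 22 members: 0 rows without either control library, 2833 without PAF KO 2 and 8397 without PAF KO 1. The replicate numbers are not stated to pair samples, and same-numbered samples deviated from their group means with r = -0.115. A replicate block called 13 rows and 0 members, and the crossed block likewise 13 rows and 0 members. The median over the hypoxia members ran from -0.59 without PAF KO 1 to -0.0068 without PAF KO 2, and that over the glycolytic members from -0.54 to 0.07. Removing the GC and length trend moved the latter to -0.03. The ENO1 share of enolase, which rests on an uncertain row, differed by -27.7 to -2.20 percentage points when 1 library was left out. Of the 27 tested members, 17 kept their sign in every setting. HK1 (0.075), GPI1 (0.024) and PFKP (0.043) turned positive once the GC and length trend was removed, and PFKP also with median centring (0.051). Leaving out 1 library turned the sign of 9 members, whose log2 differences ran from -0.073 to 0.25 for HK2, -0.72 to 0.33 for GPI1, -0.11 to 0.10 for PFKP, -0.92 to 0.037 for PFKFB4, -0.76 to 0.29 for ALDOA, -0.68 to 0.54 for ENO3, -0.65 to 0.82 for CAR9, -1.28 to 0.15 for NDRG1 and -0.57 to 0.071 for ADM. Apart from the changes that follow from having fewer libraries, the cause of these changes was not tested.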
